A study of Mus musculus with 12 samples.

Results

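Gene expression at embryonic day 10 (E10) was compared between otic vesicles of mouse embryos labelled Dlx5-null and otic vesicles of wild-type embryos. The comparison rests on 4 of the 12 Affymetrix arrays of the series, 2 per genotype, chosen by the stage and genotype in their titles. Each array measured a separate pool of 4 to 8 vesicles, which had been treated with 1 mg/ml dispase for 10 to 15 minutes to help strip off mesenchyme. Embryos were staged singly by somite number, and the series title names targets downstream of Dlx5 as its question. The series also holds 2 wild-type and 2 labelled-null arrays of E10.5 vesicles, used here for comparison, and 4 arrays of a cell line, not used here. All values are log2 signal intensities, so that a difference of 1 is a 2-fold change. The labels do not say whether pools of the same replicate number came from the same litter or day. With 2 pools a group, an exact permutation test of a single gene cannot give a two-sided p below 0.333, so genes were tested with limma over all 13645 genes that were bright enough.

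The otic vesicle is the closed epithelial sac that pinches off from the ectoderm beside the hindbrain and gives rise to the whole inner ear and to the neurons of its ganglion. Dlx5 is a homeobox transcription factor of its dorsal wall, and mice without it have malformed semicircular canals and endolymphatic duct. Wnt and BMP signals from and around the dorsal side pattern the vestibular part of the ear, while Hedgehog signals from below pattern the cochlear part.

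The probe set of Dlx5 itself did not check the labels in the direction that they imply. Its level was 6.20 and 6.30 in the wild-type pools against 7.27 and 8.02 in the labelled-null pools. Each labelled-null pool lay above each wild-type pool, by 1.07 within replicate 1 and by 1.72 within replicate 2. The position of its probes against the deletion was not examined, so groups are named by their labels and every direction is that of the arrays as labelled. Of the other Dlx genes, Dlx3, a homeobox gene of ectodermal tissues, was at 5.90 and 5.92 in wild-type pools and at 6.43 and 6.09 in labelled-null pools. Dlx1 stood at 9.50 and 9.85 against 8.35 and 10.07, and Dlx4 at 6.0 and 5.35 against 6.07 and 5.30, with overlapping groups for both. The neighbouring gene Dlx6, at 4.61 and 5.02 against 4.76 and 4.99, and Dlx2 were too dim to be tested.

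Tissue identity was read from marker genes. List averages here are over all members on the array, the dim and untested ones included. Of 12 markers of otic epithelium, 9 were on the array and tested, with mean levels of 8.12 and 8.77 in wild-type pools and 8.09 and 8.68 in labelled-null pools. Among them, the neural crest and otic factor gene Sox10 lay between 11.13 and 11.98, and the otoconial protein gene Oc90 between 10.75 and 12.56. Other members were dimmer, such as Gata3 at 5.70 and 7.08 against 6.15 and 6.33. The 19 markers of periotic mesenchyme averaged 5.73 and 5.99 against 5.61 and 5.83. Of these, 15 were tested, and 12 of the 15 were lower in labelled-null vesicles, with a median difference of -0.18. The median over all genes was 0.01. The other lists averaged 6.87 and 7.26 against 6.83 and 7.23 for erythroid genes, 5.77 and 5.84 against 5.62 and 5.72 for endothelium, and 5.63 and 5.50 against 5.38 and 5.26 for skeletal muscle. Single erythroid genes were bright in all 4 pools, as Hbb-y at 12.03 and 12.82 against 12.21 and 12.92, levels like those of Oc90. Leukocyte markers averaged 5.71 and 5.50 against 5.59 and 5.65, hindbrain markers 5.03 and 5.02 against 5.06 and 5.09, and markers of surface ectoderm 6.84 and 6.98 against 6.80 and 6.82. The part of such cells in the differences below was not tested, and in these pooled tissues fewer cells of a type and less RNA per cell cannot be told apart.

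Genes whose levels were lower in labelled-null vesicles included Dkk1, Krt23, Pof1b, Hapln1 and Bmp4. No gene passed limma's adjusted threshold of 0.05 (0.00% of 13645), and 451 genes had an unadjusted p under 0.05 in limma (3.31%), 214 of them higher and 237 lower. Genes are therefore described by their levels. The first examples are the genes with the smallest p whose groups did not overlap and differed by at least 0.5, a pattern that 1.50% of genes had in the lower and 1.35% in the higher direction. The 15 lower genes differed by 0.78 to 2.74 in size, and the 15 higher genes by 0.71 to 1.80.

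**Figure D1:**
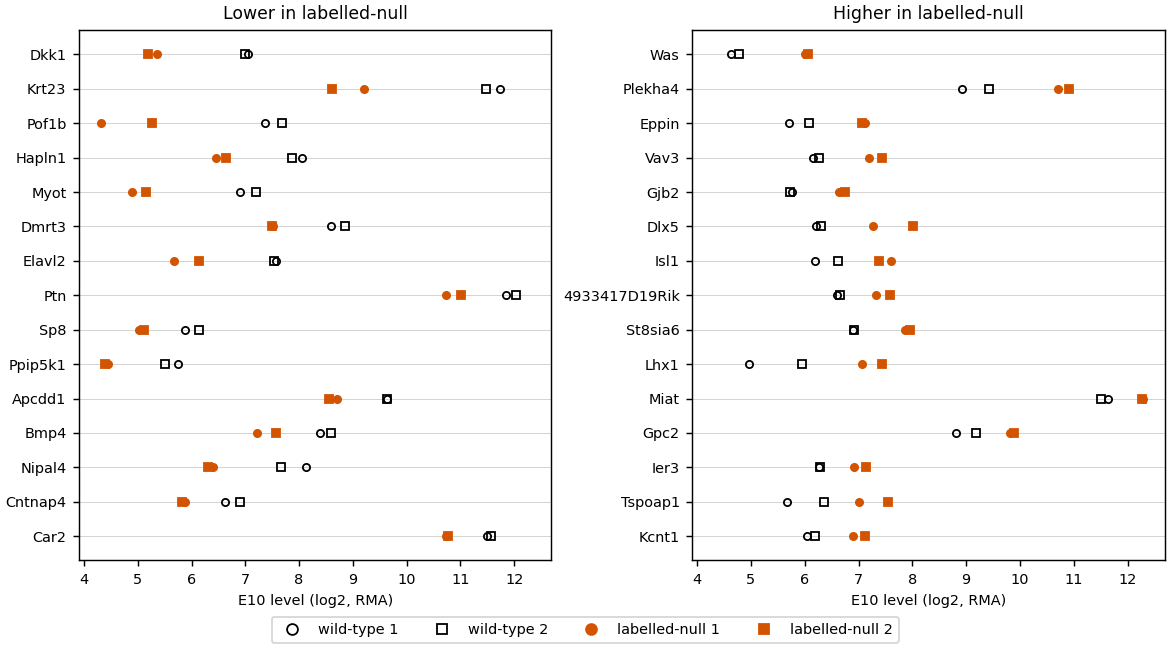
Level of the 15 lower and 15 higher genes with the smallest limma p on each E10 array. The horizontal axis is the log2 RMA level, open symbols are wild-type, filled symbols labelled-null, circles replicate 1 and squares replicate 2, and each point is 1 array. The groups do not overlap, since that was a condition of the choice.

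Dkk1, which encodes a secreted Wnt antagonist, had levels of 7.05 and 6.99 in wild-type pools and of 5.36 and 5.19 in labelled-null pools. The 2 wild-type arrays differed by little, and the labelled-null arrays lay well below, with differences of -1.69 and -1.80 within replicates 1 and 2 (group difference -1.75, SE 0.15, limma adjusted p = 0.0759). Its other probe set was also lower in both labelled-null arrays (difference -1.89), with levels of 6.14 and 6.68 against 4.92 and 4.12. Apcdd1, a gene for a membrane-bound Wnt inhibitor, stood at 9.64 and 9.63 in wild-type pools and at 8.71 and 8.55 in labelled-null pools. Of its 5 further probe sets, those of 8.00 and 7.92 against 7.03 and 6.87 and of 8.61 and 8.41 against 7.60 and 7.21 differed by as much, and the dimmest set differed by 0.30 in the other direction.

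The keratin gene Krt23, which encodes a type I intermediate filament protein, was bright in wild-type vesicles. Its level was 11.74 and 11.47 in wild-type pools and 9.20 and 8.61 in labelled-null pools, or differences of -2.54 within replicate 1 and -2.86 within replicate 2. Pof1b, whose X-linked gene encodes a protein that binds actin at epithelial junctions, stood at 7.36 and 7.68 against 4.31 and 5.26. Hapln1, which encodes a link protein that joins hyaluronan to proteoglycans, stood at 8.05 and 7.87 against 6.46 and 6.64. Every labelled-null array was below every wild-type array for these 3 genes, and the smallest difference within a replicate number was -1.23, for Hapln1 in replicate 2. Its brighter further probe set, at 4.34 and 5.27 against 4.38 and 4.79, overlapped between groups.

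For Dkk1, Krt23, Pof1b and Hapln1, the 4 lower genes with the smallest p, the sequence at the start of the gene is shown. Each is the RefSeq promoter window on GRCm38.p6, with 250 bases before and 50 after the annotated start, read on the strand of the gene. Capitals mark a match to TAATTA or TAATTG, the core letters that homeodomain proteins of the Dlx type are known to bind, searched on both strands. The windows are Dkk1 at chr19:30549447-30549746 on the minus strand, Krt23 at chr11:99493071-99493370 on the minus strand, Pof1b at chrX:112698602-112698901 on the minus strand and Hapln1 at chr13:89540386-89540685 on the plus strand.
Dkk1: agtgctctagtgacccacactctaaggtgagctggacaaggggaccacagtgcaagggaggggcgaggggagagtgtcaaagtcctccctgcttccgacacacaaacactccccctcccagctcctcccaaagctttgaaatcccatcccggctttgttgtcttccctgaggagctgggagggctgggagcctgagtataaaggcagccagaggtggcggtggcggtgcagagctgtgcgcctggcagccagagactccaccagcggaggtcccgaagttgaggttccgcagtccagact
Krt23: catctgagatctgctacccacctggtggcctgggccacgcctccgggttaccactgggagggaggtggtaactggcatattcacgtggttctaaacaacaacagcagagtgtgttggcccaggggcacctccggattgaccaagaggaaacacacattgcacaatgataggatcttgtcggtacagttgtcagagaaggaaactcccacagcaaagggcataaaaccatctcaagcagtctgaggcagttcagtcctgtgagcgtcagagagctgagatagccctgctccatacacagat
Pof1b: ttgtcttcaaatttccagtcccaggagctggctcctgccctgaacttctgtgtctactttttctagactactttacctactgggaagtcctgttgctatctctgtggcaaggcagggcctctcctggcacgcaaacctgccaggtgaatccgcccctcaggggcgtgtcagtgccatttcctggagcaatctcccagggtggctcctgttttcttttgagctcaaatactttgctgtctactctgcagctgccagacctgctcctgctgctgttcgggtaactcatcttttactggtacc
Hapln1: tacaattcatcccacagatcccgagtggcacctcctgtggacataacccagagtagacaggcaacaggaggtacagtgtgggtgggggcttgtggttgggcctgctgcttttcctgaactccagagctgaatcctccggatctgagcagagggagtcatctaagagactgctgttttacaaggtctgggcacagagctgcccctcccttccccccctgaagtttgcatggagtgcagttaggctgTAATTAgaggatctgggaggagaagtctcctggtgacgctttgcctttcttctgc
The match in Hapln1 is TAATTA, which begins 5 bases before the start, at position -5. The table held such a window for 23 of the 30 genes described by smallest p, and Hapln1 was the 1 gene among them with a match. Of 10973 tested genes with a window, 6.96% had a match, and of all 27025 windows 12.6%. A match is a string of letters, and no binding was measured.

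The transcription factor genes Dmrt3, Sp8 and Pax8 were also at lower levels, while others such as Isl1 and Lhx1, given with the higher genes, lay on the other side. Dmrt3, a gene of the doublesex family known from spinal interneurons, stood at 8.59 and 8.85 in wild-type pools and at 7.51 and 7.50 in labelled-null pools. Sp8, a zinc finger factor gene of limb and otic ectoderm, stood at 5.87 and 6.14 against 5.02 and 5.12. Both genes had nearly equal labelled-null levels in the 2 replicates, each below the lower wild-type array. Pax8, which encodes a paired box factor of the otic placode, was at 8.93 and 9.12 against 7.63 and 8.07 (difference -1.18, SE 0.21, limma adjusted p = 0.471). Elavl2, which encodes a neuronal RNA-binding protein, stood at 7.57 and 7.53 against 5.67 and 6.14. Its 4 further probe sets differed by -0.62, 0.29, -1.07 and -0.13, so that they did not all have the direction of the brightest set.

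The growth factor genes among the lower 15 were Bmp4 and Ptn. Bmp4, whose product patterns the canals and their sensory patches, was at 8.38 and 8.60 in wild-type pools and at 7.22 and 7.57 in labelled-null pools. Ptn, which encodes the heparin-binding factor pleiotrophin, was at 11.84 and 12.03 against 10.73 and 11.01. In both genes the labelled-null arrays were lower by more than 1 in each replicate number. The dimmer set of Ptn at 9.08 and 8.64 against 8.21 and 7.88 shared this order, and the dimmest set overlapped. Myot, a gene for a Z-disc protein of muscle, stood at 6.91 and 7.19 against 4.89 and 5.15, with differences of -2.02 and -2.04 in replicates 1 and 2. Of the other 10 tested markers of skeletal muscle, 8 were lower in labelled-null vesicles. The next by p among these markers was the myosin light chain gene Myl1, at 5.42 and 6.70 against 5.34 and 5.39, where the difference came mostly from wild-type replicate 2.

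The remaining lower genes were the inositol pyrophosphate kinase gene Ppip5k1 (difference -1.21, SE 0.21), the epidermal lipid gene Nipal4 (-1.54, SE 0.27), the axonal adhesion gene Cntnap4 (-0.91, SE 0.16) and Car2. Car2, which encodes a carbonic anhydrase, was bright and had the narrowest spread of these 4, at 11.49 and 11.57 in wild-type against 10.73 and 10.77 in labelled-null arrays.

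Genes higher in labelled-null vesicles included Was, Vav3, Plekha4, Isl1 and Gjb2. Was, an X-linked gene for an actin-nucleation factor of blood cells, stood at 4.62 and 4.77 in wild-type pools and at 6.0 and 6.05 in labelled-null pools. Its wild-type levels were dim, and each labelled-null array was higher by 1.38 or 1.28 within its replicate number (difference 1.33, SE 0.15, limma adjusted p = 0.124). Vav3, which encodes a guanine nucleotide exchange factor, stood at 6.15 and 6.27 against 7.20 and 7.44. A further probe set of Vav3 stood at 5.67 and 5.81 against 6.61 and 6.98, and another at 5.95 and 5.78 against 5.49 and 5.90, where the groups overlapped. Plekha4, a gene for a phosphoinositide-binding adaptor, was at 8.92 and 9.42 against 10.70 and 10.91. Its 3 dimmer probe sets were higher by 1.01, 1.05 and 0.54, each without overlap. Of the 10 tested leukocyte markers 5 were higher and 5 lower, with a median difference of 0.01. That median was -0.12 within replicate 1 and 0.21 within replicate 2. The part of blood cells in the levels of these genes was not tested.

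Of the neuronal factor genes, Isl1, a LIM homeobox gene of otic neurons and sensory cells, stood at 6.19 and 6.62 in wild-type pools and at 7.60 and 7.37 in labelled-null pools. The gap was 1.41 within replicate 1 and 0.75 within replicate 2, so the size depended on the replicate number. The dimmer probe set of Isl1 overlapped, at 5.85 and 5.82 against 6.32 and 5.80. Lhx1, another LIM homeobox gene, known from kidney and spinal cord and a member of the hindbrain marker list, stood at 4.96 and 5.95 against 7.07 and 7.44. The other 4 tested hindbrain markers, Pax3, Pax7, Lhx9 and Zic1, had overlapping groups. Its further probe set, at 4.99 and 4.43 against 4.86 and 4.92, overlapped. The long noncoding RNA Lhx1os, named for the strand opposite Lhx1, was at 5.13 and 5.93 against 6.63 and 7.57.

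Gjb2, which encodes the gap junction protein connexin 26, was at 5.77 and 5.72 in wild-type pools and at 6.64 and 6.74 in labelled-null pools. Both pairs agreed to within 0.10, and the gap was 0.87 in replicate 1 and 1.02 in replicate 2. The potassium channel gene Kcnt1 was at 6.04 and 6.19 against 6.90 and 7.11, and a dimmer probe set at 4.48 and 4.58 against 5.65 and 5.58. The sialyltransferase gene St8sia6 stood at 6.90 and 6.92 against 7.86 and 7.96. Eppin, which encodes a protease inhibitor known from the epididymis, stood at 5.71 and 6.07 against 7.11 and 7.07.

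The other higher genes by this rule were 4933417D19Rik (difference 0.84, SE 0.16), the noncoding RNA Miat (0.71, SE 0.14), the glypican gene Gpc2 (0.85, SE 0.18), the early response gene Ier3 (0.75, SE 0.16) and the synaptic scaffold gene Tspoap1 (1.27, SE 0.28). The 15 higher genes had 12 further probe sets, 10 of which were higher too, and the 15 lower genes had 20, of which 15 were lower.

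Ranking by size gave 10 genes per direction, of which 3 of the higher and 6 of the lower were also among the 15 with the smallest p. Pou3f3, a POU factor gene of the nervous system, had the widest gap in the higher direction, with 7.98 and 10.43 in wild-type pools and 11.07 and 12.09 in labelled-null pools. Its wild-type arrays differed from each other by 2.45, more than the group difference of 2.38 (SE 0.71, limma adjusted p = 1). A dimmer probe set of Pou3f3 overlapped, at 4.43 and 4.67 against 4.98 and 4.64. For the brighter set the gap was 3.09 within replicate 1 and 1.66 within replicate 2. Similar levels, with replicate 2 above replicate 1 in each genotype, were found for several of the others. The fatty acid transporter gene Slc27a2 was at 6.78 and 8.72 against 9.00 and 9.91, and the carboxypeptidase gene Cpm at 5.18 and 6.56 against 6.77 and 8.20. The retinoic acid synthesis gene Aldh1a3 was at 4.91 and 6.19 against 6.63 and 7.47. For these genes the order by level ran from wild-type 1 through wild-type 2 and labelled-null 1 to labelled-null 2. The lipid raft gene Flot2 (6.52 and 7.40 against 8.08 and 8.89) and the carboxylesterase gene Ces1d (5.39 and 7.10 against 7.22 and 8.25) had this order as well.

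In the lower direction, Spata5l1, a gene for an ATPase of the AAA family, rested mainly on 1 array. It was at 10.67 and 9.62 in wild-type pools and at 9.50 and 6.04 in labelled-null pools. The difference was -1.17 in replicate 1 and -3.58 in replicate 2. Irs4, an insulin receptor substrate gene, stood at 6.18 and 6.14 against 5.06 and 4.13, and the monoamine oxidase gene Maob at 5.86 and 6.44 against 5.04 and 4.18. Nxf7, of the nuclear export factor family, stood at 6.08 and 7.26 against 5.74 and 4.55. In all 4 genes labelled-null replicate 2 was the lowest array of the probe set given. The dimmer probe set of Irs4 overlapped between groups, at 5.03 and 4.36 against 5.06 and 4.70.

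The replicates differed from each other in the same way in both genotypes. Over 13645 genes, replicate 2 minus replicate 1 had a correlation of 0.71 between the wild-type and the labelled-null pair, and the same measure at E10.5 was 0.07. These are descriptions across genes, which are not independent, over arrays normalized together. The SD over genes of replicate 2 minus replicate 1 was 0.50 in wild-type and 0.49 in labelled-null vesicles, against 0.32 and 0.31 for the genotype difference within replicates 1 and 2. The sign was shared by both genotypes in 79.9% of genes, with replicate 2 higher in 53.3% and lower in 26.6%. The median of replicate 2 minus replicate 1, averaged over the genotypes, was 0.20 in the brightest 25% of genes and -0.16 in the dimmest. The replicate 1 arrays also had a narrower spread over all probe sets (SD 2.32 and 2.327) than the replicate 2 arrays (2.468 and 2.453). Of the genes past 1 in size with the same sign in both pairs, 237 differed between replicates (218 higher and 19 lower in replicate 2) and 36 between genotypes (18 in each direction).

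**Figure D2:**
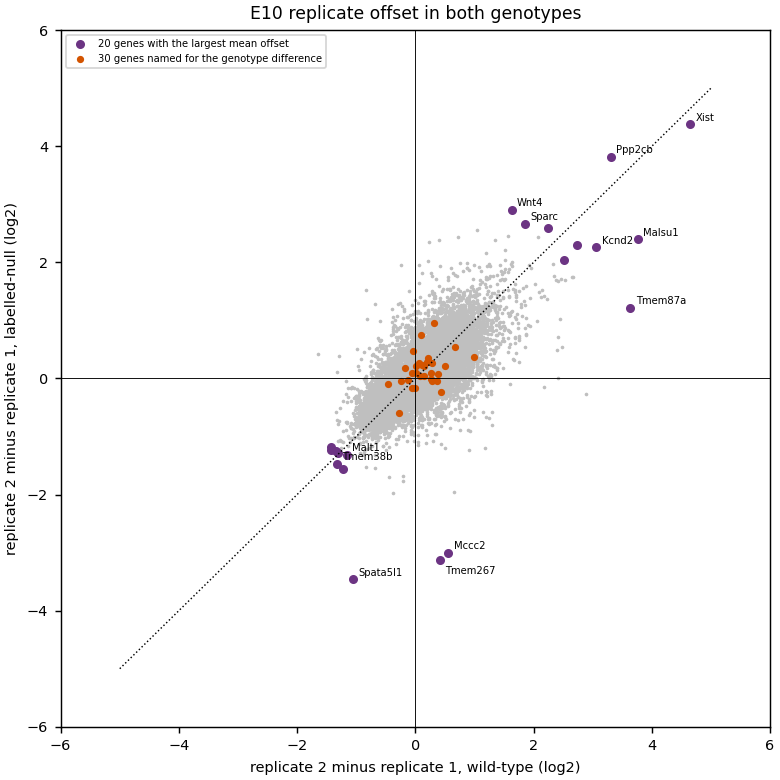
Replicate 2 minus replicate 1 in labelled-null vesicles (vertical axis, log2) against the same in wild-type vesicles (horizontal axis, log2). Each grey point is 1 of 13645 genes, purple points are the 20 genes with the widest mean offset, orange points the 30 genes described by smallest genotype p, and the dotted line marks equal offsets. Grey points follow the dotted line (correlation 0.71), and Xist lies at its upper end.

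Xist, the noncoding RNA that silences an X chromosome in female cells, had the widest offset, with 5.07 and 9.72 in wild-type pools and 4.98 and 9.36 in labelled-null pools. The replicate 1 pools were thus low in Xist in both genotypes and the replicate 2 pools high. The Y-linked Eif2s3y, too dim on average to be tested, was at 7.04 and 3.96 in wild-type pools and at 6.50 and 6.17 in labelled-null pools. Replicate 1 therefore had like levels of both genes in the 2 genotypes, while in replicate 2 Eif2s3y was higher in the labelled-null pool. The part of the sex of the embryos in the offset or in the genotype differences was not tested. Other genes with high levels in replicate 2 of both genotypes were the phosphatase subunit gene Ppp2cb (7.73 and 11.04 in wild-type, 8.05 and 11.87 in labelled-null arrays), the potassium channel gene Kcnd2 (4.62 and 7.68, 5.14 and 7.40), the ligand gene Wnt4 (6.98 and 8.61, 6.38 and 9.29) and the matrix gene Sparc (9.24 and 11.09, 9.14 and 11.81). Low in replicate 2 were Tmem38b (8.70 and 7.37, 8.95 and 7.48), which encodes an ion channel of the endoplasmic reticulum, and the kinase gene Pik3cd (9.96 and 8.54, 10.02 and 8.78). For 7 of the 10 genes highest in replicate 2 and for 7 of the 10 lowest, the mean of the E10.5 wild-type arrays lay nearer to E10 replicate 2 than to replicate 1. Sparc and Wnt4 were examples, at 12.91 and 12.94 and at 11.32 and 11.30 in E10.5 wild-type arrays. Ppp2cb, at 8.34 and 8.34 there, lay nearer to replicate 1, as did Tmem87a (6.12 and 6.04) and Trmt9b (6.84 and 7.29). The lowest 10 include Tmem267 and Mccc2, where labelled-null replicate 2 alone was low. The share over all genes was not counted, so these counts do not show a likeness to the later stage. Tested over the 4 E10 arrays, no gene's offset passed in limma (0.00%, smallest adjusted p 0.0623), and 5798 genes (42.5%) had an unadjusted p under 0.05.

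Within replicate numbers, the 2 genotype differences of a gene correlated less, at 0.25 across genes, than the offsets did. The labelled-null array was higher in both replicate numbers for 3930 genes (28.8%), lower in both for 3621 (26.5%), and 5601 genes had opposite signs. With the replicate number added as a term among the E10 arrays, limma called 73 genes (0.535%), 45 higher (0.330%) and 28 lower (0.205%). With the same term and the E10 arrays alone it called 0, with 1129 genes at an unadjusted p under 0.05. With the term in both stages it called 0, with a smallest adjusted p of 0.0506 and 1641 genes at an unadjusted p under 0.05. Of the 73, 52 (71.2%) had groups that did not overlap, a pattern of 17.4% of all genes, and 42 had a replicate offset above 0.5 in size. An example of the other 21 is Cacna1h, a calcium channel gene chosen after its values were seen, at 7.39 and 9.27 in wild-type pools and at 9.18 and 10.77 in labelled-null pools. Its groups overlapped, while the gap was 1.79 and 1.50 within replicates 1 and 2 (limma adjusted p = 0.0102 with the term and 1 without).

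**Figure D3:**
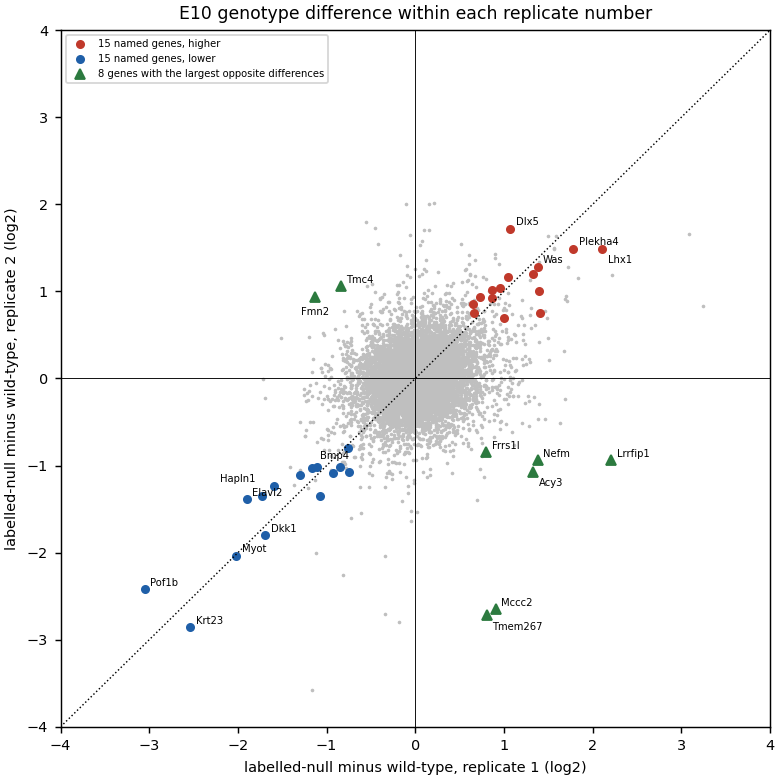
Labelled-null minus wild-type difference within replicate 2 (vertical axis, log2) against that within replicate 1 (horizontal axis, log2). Grey points are 13645 genes, red and blue points the 15 higher and 15 lower genes described by smallest p, green triangles the 8 genes with the widest opposite differences, and the dotted line marks equal differences. Red and blue points lie near the dotted line, Dkk1 at -1.69 and -1.80, and the grey cloud has little slope (correlation 0.25).

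Of the 41 genes described by p or size, 30 passed with the E10 term and 0 with the term in both stages. The 41 had been chosen by their differences on the same E10 arrays, so these counts are no separate check of them. All 10 of the largest higher genes were among the 30, Cpm with a limma adjusted p of 0.0117 and Pou3f3 with 0.0376. In the lower direction 12 of the 15 genes with the smallest p passed, with Dkk1, Krt23 and Pof1b at an adjusted p of 0.0102. Isl1 (0.0648), Apcdd1 (0.0516) and Nipal4 (0.0647) missed the threshold in that fit, as did Spata5l1 (0.106) and Nxf7 (0.258), whose gaps differed between replicate numbers.

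The 8 genes with the widest opposite differences had overlapping groups, and their differences within the replicate numbers had opposite signs. Group differences of Tmem267 (-0.96), Mccc2 (-0.87) and Lrrfip1 (0.64) were still as wide as some of those given above. Lrrfip1, a gene for a nucleic acid sensor, was at 7.83 and 10.72 in wild-type pools and at 10.04 and 9.78 in labelled-null pools, with differences of 2.21 in replicate 1 and -0.94 in replicate 2. The aminoacylase gene Acy3 (5.73 and 8.14 against 7.06 and 7.07) and the neurofilament gene Nefm (5.81 and 7.99 against 7.19 and 7.05) had the same form, with wild-type replicate 1 lowest and wild-type replicate 2 highest. Mccc2, which encodes a mitochondrial carboxylase subunit, was at 8.80 and 9.36 against 9.71 and 6.71, and Tmem267 at 11.24 and 11.65 against 12.05 and 8.93. In the last 2 genes labelled-null replicate 2 alone stood far below the others. The formin gene Fmn2 (6.27 and 4.62 against 5.14 and 5.56) and Tmc4 (7.24 and 7.30 against 6.40 and 8.36) had the opposite order, lower in replicate 1 and higher in replicate 2 of the labelled-null vesicles. Frrs1l completed the 8, with differences of 0.80 and -0.85.

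Genes of known pathways were counted by list. Among all genes 50.9% were higher and 48.6% lower, groups did not overlap in 8.52% (higher) and 8.93% (lower), and an unadjusted p under 0.05 in limma was reached by 1.57% and 1.74%. Of 20 tested Wnt antagonists and feedback genes, 8 were higher and 12 lower, with a median of -0.02. Of these, 5 were lower without overlap and the same 5 had an unadjusted p under 0.05, Dkk1, Apcdd1, Znrf3, Dkk2 and Lgr5. Another 2 were higher without overlap, Sfrp2 (6.68 and 6.63 against 6.98 and 7.31) and Kremen1 (8.11 and 8.31 against 8.43 and 8.68). Znrf3, which encodes a ubiquitin ligase that removes Wnt receptors, was at 7.67 and 7.52 in wild-type pools and at 6.56 and 6.79 in labelled-null pools. Its dimmer probe set went the other way without overlap, at 5.55 and 5.75 against 5.95 and 5.92. Dkk2, a relative of Dkk1, was at 6.62 and 7.19 against 5.49 and 6.02, and the R-spondin receptor gene Lgr5 at 6.56 and 6.07 against 5.94 and 4.82. Within replicates 1 and 2 the differences were -1.11 and -0.73 for Znrf3 and -1.13 and -1.17 for Dkk2, and Dkk2 passed with the E10 replicate term (limma adjusted p = 0.0262).

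In the BMP list 8 of 21 genes were higher and 13 lower, with a median of -0.20, which was -0.30 within replicate 1 and 0.02 within replicate 2. Besides Bmp4, the BMP-responsive homeobox gene Msx1 was lower, at 8.72 and 8.75 in wild-type against 7.98 and 8.09 in labelled-null arrays. The decoy receptor gene Bambi was at 7.34 and 8.28 against 5.97 and 7.06, and the antagonist gene Fst at 5.94 and 5.49 against 4.95 and 4.90. The ligand gene Bmp6 was higher, at 6.94 and 7.91 against 8.23 and 9.04. Groups did not overlap in any of these 5 genes, and Bmp4, Msx1, Bambi and Bmp6 passed with the E10 replicate term (limma adjusted p from 0.0358 to 0.0483). The list had an offset of 0.35 between replicates, with 19 of 21 genes higher in replicate 2 of the genotype means.

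The dorsal otocyst list, which shares Bmp4 and Msx1 with the BMP list, had 7 of 13 genes higher and 6 lower and a median of 0.00. Its 5 genes without overlap went both ways, with Sp8, Bmp4 and Msx1 lower and Aldh1a3 and the GATA factor gene Gata2 (7.11 and 7.06 against 7.27 and 7.60) higher. The list named ventral otocyst also holds Eya1, Sall4 and Lmx1a, and where its members are active in the vesicle was not tested. In this list 7 of 10 genes were higher, with a median of 0.18, and all 10 were higher in replicate 2, by a median of 0.71. Otx1, an otic and forebrain homeobox gene, shows both at once, at 5.62 and 8.08 in wild-type pools and at 7.32 and 9.03 in labelled-null pools. The Hedgehog target gene Gli1 was at 6.19 and 6.40 against 6.56 and 6.72, the 1 gene of that list without overlap. Emx2, a homeobox gene of hair cell orientation, was at 5.20 and 5.42 against 5.41 and 7.43, high on labelled-null replicate 2 alone.

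Of 23 genes of otic neurogenesis, 17 were higher and 6 lower, with a median of 0.22 that was 0.53 within replicate 1 and 0.12 within replicate 2. Groups did not overlap in 9 higher and 2 lower genes, and 6 and 2 had an unadjusted p under 0.05. The microtubule-associated Dcx was at 5.30 and 5.15 in wild-type pools and at 5.83 and 5.99 in labelled-null pools. Its dimmer probe sets overlapped, with differences of 0.19, -0.04 and 0.03. Eya2, a transcriptional coactivator gene of cranial placodes, was at 5.63 and 6.10 against 6.65 and 6.63. Gap43, a growth cone gene, was lower, at 8.16 and 8.77 against 7.56 and 7.84, as was Elavl2. Genes for neuronal products thus lay on both sides. In the prosensory and Notch list 10 of 18 genes were higher and 8 lower, with a median of 0.02. Sox2, the prosensory factor gene, was at 9.83 and 9.88 against 9.36 and 9.27, and the Notch effector gene Hey2 at 6.10 and 5.93 against 5.72 and 5.56. Hes6, a basic helix-loop-helix gene of differentiating neurons, was higher, at 9.98 and 10.57 against 10.71 and 10.99.

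**Figure D4:**
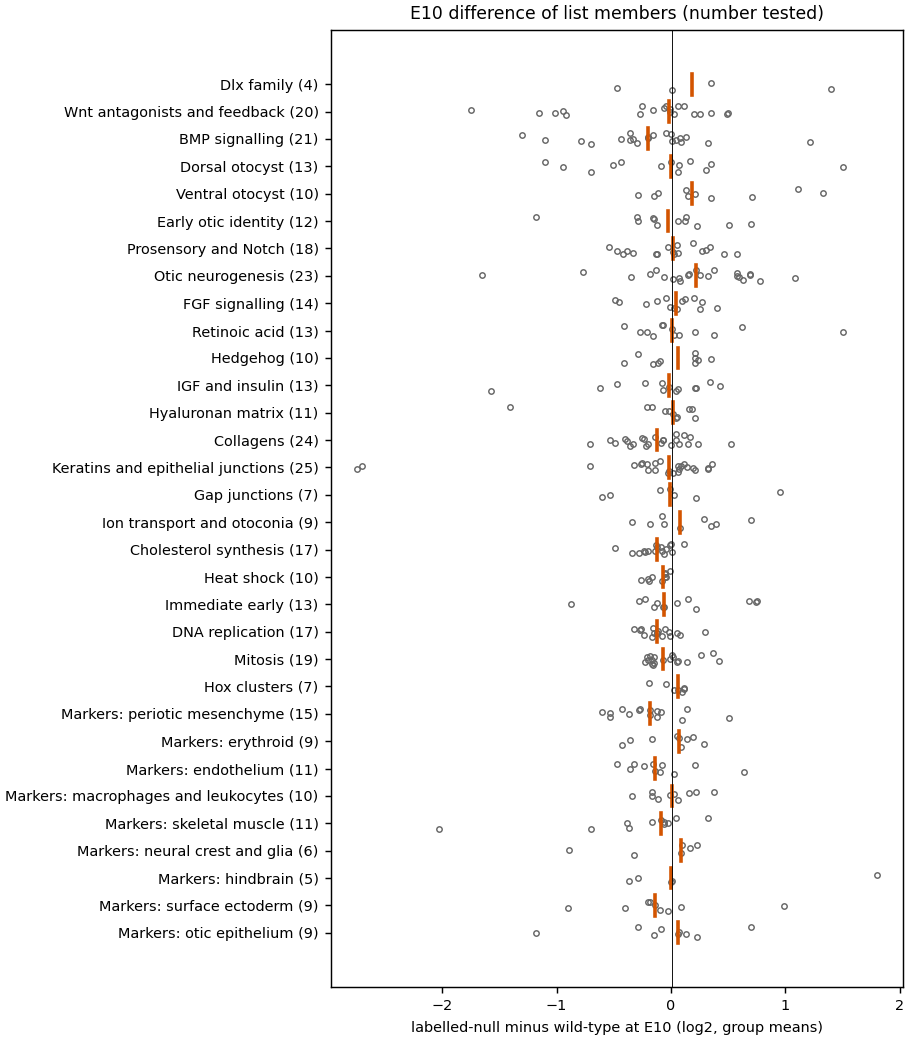
E10 labelled-null minus wild-type difference of group means (horizontal axis, log2) for the members of the gene lists shown. Circles are tested genes, with their number beside the list name, orange bars are list medians, and the vertical line is the median of all 13645 genes (0.01). List medians lie between -0.20 (BMP signalling) and 0.22 (otic neurogenesis), and single genes such as Krt23 and Pof1b lie far outside their lists.

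The keratin and epithelial junction list had 12 of 25 genes higher and 13 lower with a median of -0.02, far from the differences of Krt23 and Pof1b. Groups did not overlap in 6 lower and 2 higher genes, and 3 lower and 0 higher genes had an unadjusted p under 0.05 in limma. The desmosomal cadherin gene Dsc2 was the next by p, at 8.22 and 8.34 in wild-type pools and at 7.74 and 7.41 in labelled-null pools. The adhesion gene Cdh3 was higher, at 9.03 and 9.09 against 9.33 and 9.42. Of 7 tested gap junction genes, Gjb2 and Gjc1 (8.68 and 8.57 against 8.80 and 8.89) were higher and Gja4 (5.15 and 5.32 against 4.54 and 4.74) and Gjb5 (6.05 and 6.06 against 5.19 and 5.87) were lower without overlap. Among 9 genes of ion transport and otoconia, Otog, a gene of the acellular membranes over sensory cells, was at 12.65 and 12.43 against 12.84 and 13.02. The anion exchanger gene Slc26a4, needed in the endolymphatic sac, was at 6.42 and 6.15 against 6.80 and 6.47. Both were higher without overlap, by less than 0.6 in each replicate number.

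In 13 immediate early genes, 6 were higher and 7 lower. The antiproliferative gene Btg2 was at 9.83 and 10.33 in wild-type pools and at 10.76 and 10.75 in labelled-null pools, and the Krüppel-like factor gene Klf6 at 7.27 and 7.25 against 6.21 and 6.57. Fgfr3, a receptor gene of the sensory epithelium, was at 6.50 and 6.54 against 6.18 and 5.88, the 1 of 14 FGF genes with an unadjusted p under 0.05 in limma. Gas1, a Hedgehog co-receptor gene, was at 10.00 and 10.25 against 9.80 and 9.63.

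Lists of cell growth and metabolism differed by little. Cholesterol synthesis genes were lower in 14 of 17, with a median of -0.12, but the median was 0.09 within replicate 1 and -0.24 within replicate 2. Msmo1, which encodes a sterol oxidase, was at 9.55 and 9.75 in wild-type pools and at 9.38 and 8.95 in labelled-null pools. DNA replication genes were lower in 14 of 17 with a median of -0.12, and here too the median was 0.01 in replicate 1 and -0.23 in replicate 2. Heat shock genes were lower in 10 of 10 with a median of -0.07, and 1 of them had no overlap between groups. Mitosis genes were lower in 11 of 19, with a median of -0.07. No member of these 4 lists other than Msmo1 had an unadjusted p under 0.05 in limma.

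Markers of other cell types included Myot (skeletal muscle) and Lhx1 (hindbrain), described above among the genes with the smallest p and the widest differences. Dcn, a proteoglycan gene of mesenchyme, was at 5.92 and 5.88 in wild-type pools and at 5.53 and 5.42 in labelled-null pools, the 1 of 15 mesenchyme markers with an unadjusted p under 0.05 in limma. Among 9 markers of surface ectoderm, 7 were lower. The factor gene Tfap2c was at 8.17 and 7.66 against 7.34 and 6.70, and Ovol1, an epidermal zinc finger gene, was higher at 4.38 and 5.51 against 5.73 and 6.13. The 9 erythroid genes had a median of 0.07 and the 11 endothelial genes one of -0.14, with no unadjusted p under 0.05 in either list.

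The stage that followed gave a comparison on other arrays. E10.5 values come from 2 wild-type and 2 labelled-null pools that share no array with the E10 pools, though the fit shares its estimate of spread. Of the 15 lower genes, 14 were also lower at E10.5, 13 of them without overlap, whereas of the 15 higher genes 9 were also higher, 7 without overlap. Over all genes 52.4% had the same sign at both stages, and 72.9% of the 388 genes that did not overlap at E10 and differed by at least 0.5. At E10.5 groups did not overlap in 16.9% (higher) and 28.2% (lower) of genes. The median of the lower 15 was -1.22 at E10 and -0.74 at E10.5, and that of the higher 15 was 1.08 and 0.13. Since the genes were chosen by their E10 values, smaller medians at E10.5 can follow from the choice. The Y-linked Eif2s3y was at 3.21 and 3.45 in wild-type pools and 4.82 and 5.04 in labelled-null pools of E10.5, and its part in these values was not tested. The 9 tested erythroid markers had a median difference of 0.07 at E10 and 0.96 at E10.5. The part of blood cells in the stage comparison was not tested either.

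**Figure D5:**
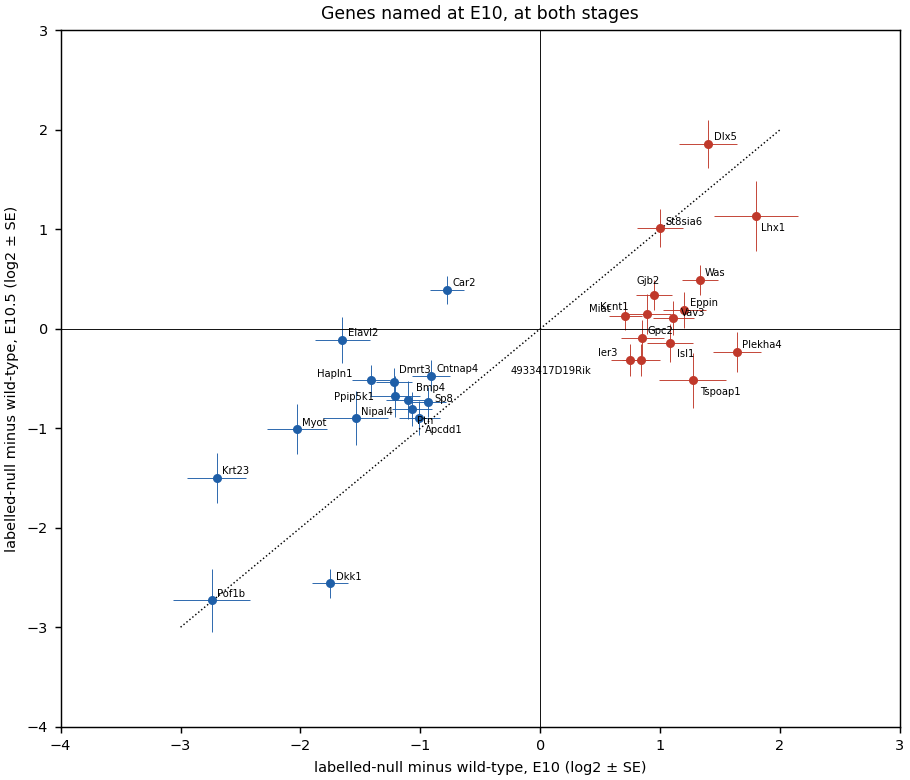
Labelled-null minus wild-type difference at E10.5 (vertical axis, log2) against that at E10 (horizontal axis, log2) for the 15 higher (red) and 15 lower (blue) genes described by smallest E10 p. Points are differences of group means, bars are SE from the fit on 8 arrays, and the dotted line marks equal differences. Most blue points lie at the lower left and Car2 above 0, while 6 red points lie below 0 and Dlx5, Lhx1 and St8sia6 have the highest E10.5 values.

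The differences of Dkk1 (-1.75 at E10 and -2.56 at E10.5, SE 0.15 at each) and Dlx5 (1.40 and 1.86, SE 0.24 at each) were wider at E10.5. The E10 difference minus the E10.5 difference was 0.82 (SE 0.22) for Dkk1 and -0.46 (SE 0.34) for Dlx5. Dkk1 was at 6.98 and 7.17 in wild-type pools and at 4.55 and 4.48 in labelled-null pools of E10.5, and Dlx5 at 6.12 and 6.11 against 7.97 and 7.97. Pof1b had like differences, with -2.74 at E10 and -2.73 at E10.5 (SE 0.32 at each), and so did St8sia6, with 1.00 and 1.01 (SE 0.19). For Krt23 the E10.5 levels were 8.69 and 8.83 in wild-type pools and 7.50 and 7.03 in labelled-null pools, so the difference was -1.50 (SE 0.25) after -2.70. The difference between stages, tested as an interaction, passed for no gene in limma (0.00%, smallest adjusted p 1), and 269 genes (1.97%) had an unadjusted p under 0.05. Of the genes described by p, 12 of the 15 higher and 7 of the 15 lower had an unadjusted interaction p under 0.05 in limma. These genes were chosen for their E10 difference, which is part of the interaction. Their counts therefore cannot be set against the share over all genes.

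Several E10 labelled-null levels lay close to the wild-type levels of E10.5. Plekha4, at 10.70 and 10.91 in E10 labelled-null vesicles and 8.92 and 9.42 in E10 wild-type vesicles, was at 11.14 and 11.21 in E10.5 wild-type and 10.97 and 10.93 in E10.5 labelled-null vesicles. Elavl2 stood at 5.61 and 5.37 in E10.5 wild-type and 5.60 and 5.16 in E10.5 labelled-null arrays, near the 5.67 and 6.14 of E10 labelled-null vesicles. Tspoap1 was at 5.67 and 6.35 in E10 wild-type, 7.0 and 7.55 in E10 labelled-null, 7.62 and 7.91 in E10.5 wild-type and 7.21 and 7.29 in E10.5 labelled-null arrays. Eppin (6.98 and 7.13), Miat (12.16 and 12.27) and Gpc2 (9.78 and 9.89) in E10.5 wild-type vesicles likewise lay close to an E10 labelled-null array, and Car2 (10.37 and 10.37) lay below both of its E10 labelled-null arrays. Dkk1, Bmp4, Sp8 and Hapln1 did not share this, since their E10.5 wild-type levels were near those of E10 wild-type vesicles, as with Bmp4 at 8.60 and 8.52. These genes were picked after their values were seen, and the genotype and stage differences share the E10 wild-type arrays, so the levels are given side by side without a test.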

How the data were processed

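Total RNA of pooled otic vesicles was hybridised to Affymetrix mouse genome arrays, 1 per pool. The deposited values are log2 intensities of 45101 probe sets, made by the authors with RMA in Affymetrix Expression Console, per the submitters' processing notes. Tool versions are not given in the sources used. RMA removes background, normalizes probe intensities between arrays and combines the probes of a set, which compresses differences of dim sets. The deposited vesicle arrays still differed in their spread over probe sets (SD 2.32 to 2.468). The arrays had mean log2 values of 6.10 to 6.11. No scanner files or detection calls were used.

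Probe sets were named from GEO's platform annotation, with symbols updated through RefSeq (GRCm38.p6): 34958 had 1 gene, 932 several and 9211 none. The probe set with the highest mean over the 8 vesicle arrays stood for each of 18194 genes, and the dimmest 25% of genes were left out, leaving 13645. Group means at both stages were fitted together (lmFit and eBayes of limma 3.58.1, R 4.3.3, with 4 residual degrees of freedom), with Benjamini-Hochberg adjustment over all genes and a threshold of 0.05. The code was tested on simulated data.

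Genes described were Dlx genes, the 15 per direction with the smallest p and the 10 with the largest difference among genes whose groups did not overlap (the former with a difference of at least 0.5), up to 5 members of each of 34 gene lists by p, the 10 per direction with the widest replicate offset and 8 with opposite differences. The members and lists were chosen with earlier results of these data known, and 1 list is not reported here. Groups not overlapping means that each array of a genotype lies above each array of the other. Sample titles gave the replicate numbers. The descriptions of all 4 E10.5 vesicle samples instead read replicate 1, so the E10.5 offset and the term in both stages rest on the titles. With 2 pairs at E10 they cannot be shown to pair the pools, so the replicate term is an alternative. Alternatives changed the filter, the normalization, the choice of probe set, the fit and the arrays included.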

Additional observations from a re-analysis of the deposited data

Results flagged for a closer look

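For 9 of the 41 genes described by p or size, the labelled-null arrays lay above the wild-type arrays at one stage and below them at the other, without overlap at either. All 41 were chosen for groups that did not overlap at E10. At E10.5 groups did not overlap in 16.9% (higher) and 28.2% (lower) of all genes. The share of all genes with opposite directions in this way was not counted. In the order E10 and E10.5, the differences were 1.64 and -0.23 for Plekha4, 1.08 and -0.14 for Isl1, 0.84 and -0.31 for 4933417D19Rik, 0.75 and -0.31 for Ier3 and 1.27 and -0.52 for Tspoap1. They were 1.71 and -0.19 for Slc27a2, 1.53 and -1.63 for Flot2 and 1.49 and -0.65 for Ces1d. Car2 went the other way, with -0.78 and 0.39. The median difference of the tested erythroid markers was 0.07 at E10 and 0.96 at E10.5, and the part of blood cells in these values was not tested. The difference between stages was tested as an interaction in limma, where no gene passed (smallest adjusted p 1). Flot2 had E10.5 levels of 8.46 and 8.54 in wild-type pools and 7.19 and 6.56 in labelled-null pools. Its dimmer probe set was higher by 0.41 at E10.

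A probe set outside the gene tests also differed. The set 1435021_at, for which the annotation used here lists no gene, had levels of 9.91 and 9.67 in wild-type pools and 7.92 and 7.71 in labelled-null pools of E10, a difference of -1.98 (SE 0.17). It was the 1 probe set that passed among 3770 with no gene or several genes, tested apart from the genes (limma adjusted p = 0.0205, with 84 at an unadjusted p under 0.05). At E10.5 it was at 7.69 and 7.80 in wild-type pools and 8.15 and 8.00 in labelled-null pools. Groups of 2 are too small to test for outlying arrays.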

How the results depend on the processing

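Of 1404 values of 90 genes under 16 alternatives, 1347 kept their direction and their side of the threshold, 51 passed it in limma and 6 changed sign. The genes that passed the adjusted threshold in limma were 0 without a filter, with the dimmest 50% left out, with arrays scaled alike, with averaged probe sets, with a trend, with the E10 arrays alone, with the replicate block on these alone and with the replicate block in both stages. They were 2 after quantile normalization (Plekha4 and Dkk1), 73 with the replicate block among the E10 arrays, 19 without both replicate 1 arrays of E10 and 1, Pou3f3, without both replicate 2 arrays. For the last counts 1 array a group is left at E10, which is assumed to vary like the E10.5 arrays. At an unadjusted p under 0.05 there were 451 genes, 792 after quantile normalization, 1861 with the E10 block, 1641 with the block in both stages, 145 with the E10 arrays alone and 1129 with the block on these alone. The count was 1689 without both replicate 1 arrays, 1896 without both replicate 2 arrays, 787 without wild-type replicate 1, 1252 without wild-type replicate 2, 1032 without labelled-null replicate 1 and 826 without labelled-null replicate 2, with 0 past the adjusted threshold in each of these last 4. The numbers do not show a pairing, since E10 has 2 pairs and the labels name no shared litter or day.

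Dlx1 turned to 0.22 and Dlx4 to -0.05 without both replicate 1 arrays. Without single arrays Dlx1 ran from -1.33 to 0.40, Dlx4 from -0.38 to 0.40 and the erythroid gene Hemgn from -0.88 to 0.02. The cause was not tested. List medians could turn with 1 array, as for BMP signalling (0.03 without labelled-null replicate 1) and cholesterol synthesis (0.08 without wild-type replicate 2). The offset correlation of 0.71 was 0.66 to 0.70 under 5 alternatives of filter, scaling and probe set, chosen after seeing the data. Signal over background, which limits dim genes such as Was and Sp8, is unknown.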
